A study of Mus musculus with 24 samples.

Results

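ARID1B peaks of the developing mouse neocortex were compared between 2 embryonic stages, E15.5 and E18.5. Peaks on chromosomes 1 to 19 of the ARID1B lists were taken, 70709 from the E15.5 and 67787 from the E18.5 list, which makes 138496 of the 315145 peaks in the 6 lists of the series. A peak that overlapped a peak of the other stage by at least 1 base was counted as found at both stages, and any other peak as E15.5 only or E18.5 only. The series holds ChIP-seq of the transcriptional regulators (TRs) ARID1B, FOXP1, and TCF7L2, all from the cortex of wild-type (WT) CD1 mice at both stages. The labels call TCF7L2 by its other name TCF4, and the antibody in the methods is against TCF7L2. Each ARID1B list is filed under replicate 1 of its stage, and by the methods peaks were called on the merged reads of replicates, which would be 2 ChIP and 2 input libraries per stage. The lists themselves do not state the merge, and no spread between replicates can be given. No gene was altered in these mice. Whole cortex was used, so a peak may come from any of its cell types, and a weaker peak in every cell cannot be told apart from a peak in fewer cells.

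ARID1B is a large DNA-binding subunit of the BAF complex, the mammalian SWI/SNF machine that uses ATP to slide and eject nucleosomes. BAF complexes open promoters and enhancers for transcription factors, and neural progenitors exchange several subunits for neuronal ones when they leave the cell cycle. E15.5 lies within the period of upper layer neurogenesis in mouse neocortex, and at E18.5 neurogenesis is ending and glia begin to form. Loss of 1 copy of ARID1B in people causes Coffin-Siris syndrome and is among the frequent monogenic causes of autism spectrum disorder.

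The sequences under summits show what the classes look like. These windows of 150 bp are centered on summits among the highest of each class and on the peaks with the largest changes in rank, and none overlaps an annotated exon. They are from the RefSeq copy of GRCm38, plus strand, which is the C57BL/6J reference and not the CD1 genome. Capitals mark matches on either strand to any of 18 short consensus motifs. Those present here are the E-boxes CATCTG (or its reverse complement) and CAGCTG, read by proneural and NEUROD factors, the NFI half-site CTTGGCA, the homeobox core TAATTA, and the forkhead core TGTTTAC.
Both stages, intergenic, nearest to Cd109, chr9:79004735-79004884: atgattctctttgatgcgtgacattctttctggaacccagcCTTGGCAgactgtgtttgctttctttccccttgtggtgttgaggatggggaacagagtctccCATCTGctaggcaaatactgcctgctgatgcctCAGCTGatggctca
Both stages, intron of Ebf1, chr11:44626105-44626254: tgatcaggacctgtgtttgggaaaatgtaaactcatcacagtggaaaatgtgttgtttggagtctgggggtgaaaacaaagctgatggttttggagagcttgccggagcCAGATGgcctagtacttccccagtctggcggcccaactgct
E15.5 only, intergenic, nearest to Brms1l, chr12:56081563-56081712: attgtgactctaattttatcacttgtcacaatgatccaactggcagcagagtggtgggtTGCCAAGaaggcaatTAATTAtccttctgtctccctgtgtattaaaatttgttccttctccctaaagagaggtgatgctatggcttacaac
E15.5 only, intron of Smad9, chr3:54761403-54761552: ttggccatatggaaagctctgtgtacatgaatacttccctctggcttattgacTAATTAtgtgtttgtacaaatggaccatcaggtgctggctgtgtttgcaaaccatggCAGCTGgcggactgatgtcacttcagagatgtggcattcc
E18.5 only, intron of Adgrv1, chr13:81596909-81597058: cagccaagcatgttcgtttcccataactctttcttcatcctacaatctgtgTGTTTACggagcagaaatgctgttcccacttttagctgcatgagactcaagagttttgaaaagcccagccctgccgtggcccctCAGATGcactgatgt
E18.5 only, intron of Mrps27, chr13:99363990-99364139: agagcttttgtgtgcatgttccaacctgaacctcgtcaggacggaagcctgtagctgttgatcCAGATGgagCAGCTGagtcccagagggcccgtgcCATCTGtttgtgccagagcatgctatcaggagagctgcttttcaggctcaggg
E18.5 only, intron of Ak5, chr3:152560476-152560625: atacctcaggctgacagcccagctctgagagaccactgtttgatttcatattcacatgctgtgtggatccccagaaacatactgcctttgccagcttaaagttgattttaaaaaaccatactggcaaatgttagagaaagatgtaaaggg
Both stages, higher rank at E18.5, intergenic, nearest to Hsfy2, chr1:56403524-56403673: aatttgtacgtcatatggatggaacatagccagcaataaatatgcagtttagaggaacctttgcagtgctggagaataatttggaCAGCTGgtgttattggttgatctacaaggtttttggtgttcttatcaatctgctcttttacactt
Both stages, higher rank at E15.5, intergenic, nearest to Tenm2, chr11:38335471-38335620: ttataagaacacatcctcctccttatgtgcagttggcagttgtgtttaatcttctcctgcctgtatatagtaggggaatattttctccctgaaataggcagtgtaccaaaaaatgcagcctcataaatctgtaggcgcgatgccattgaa

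Of the 4 windows of peaks found at both stages, those near Cd109 and in Ebf1, among the highest of the lists, hold a CATCTG E-box, and the Cd109 window also holds CAGCTG and an NFI half-site. The window near Hsfy2 holds CAGCTG alone. The E18.5-only window in Mrps27 holds 3 E-boxes. The windows in Ak5 and near Tenm2 hold none of the 18 motifs, which says only that these letters are not there. The window near Tenm2 is that of the E15.5 summit, and the window of the E18.5 summit of this pair, not printed, holds a CATCTG E-box. Shares over all windows of each class are given with the motifs further on.

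The larger part of ARID1B peaks was found at both stages. Of the E15.5 peaks, 55325 (78.2%, 95% Wilson interval 77.9% to 78.5%) overlapped an E18.5 peak, and 15384 (21.8%) were E15.5 only. Of the E18.5 peaks, 58007 (85.6%, 85.3% to 85.8%) overlapped an E15.5 peak, and 9780 (14.4%) were E18.5 only. These intervals, like all others here, cover counting error only, since neighboring peaks depend on each other and the reads of replicates were pooled before calling. Merging all peaks that touch gave 78579 loci. Stage-only peaks were narrow, so their share of sequence was smaller than their share of peaks. E15.5-only peaks covered 4.70 of the 42.9 Mb under E15.5 peaks, and E18.5-only peaks covered 2.69 of 37.6 Mb.

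Stage-only peaks were weak peaks of their own list. Fold enrichment is the read pileup of the summit divided by the background pileup, with 1 added to both. The median fold enrichment was 3.04 for E15.5-only peaks and 4.28 for E15.5 peaks found at both stages. At E18.5, it was 3.37 and 4.49. The highest E15.5-only peak reached 5.70 and the highest E18.5-only peak 5.89, whereas peaks found at both stages reached 23.8 and 31.1. Median widths were 271 bp for E15.5-only and 249 bp for E18.5-only peaks, against 569 and 494 bp for peaks found at both stages. When each list was ordered by p-value, the 13382 strongest peaks at E15.5 and the 15096 strongest at E18.5 all overlapped a peak of the other stage.

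The share found at both stages fell with rank. In the strongest decile of each list, 100% of peaks were found at both stages (7070 of 7070 at E15.5 and 6778 of 6778 at E18.5). In decile 5, it was 92.8% (92.2% to 93.4%) at E15.5 and 96.4% (96.0% to 96.9%) at E18.5. In the last decile, it was 36.3% (35.1% to 37.4%) and 54.3% (53.2% to 55.5%). The shares were also read at a common height. Between fold enrichments of 2 and 3, 39.1% (38.2% to 40.0%) of E15.5 peaks and 49.5% (47.7% to 51.3%) of E18.5 peaks were found at both stages. Between fold enrichments of 3 and 4, the share was 69.7% (69.1% to 70.2%) at E15.5 and 71.4% (70.9% to 71.9%) at E18.5. Between 4 and 5, it was 96.9% and 95.5%, and from 6 upward all 11159 peaks at E15.5 and all 14316 at E18.5 were found at both stages.

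**Figure D1:**
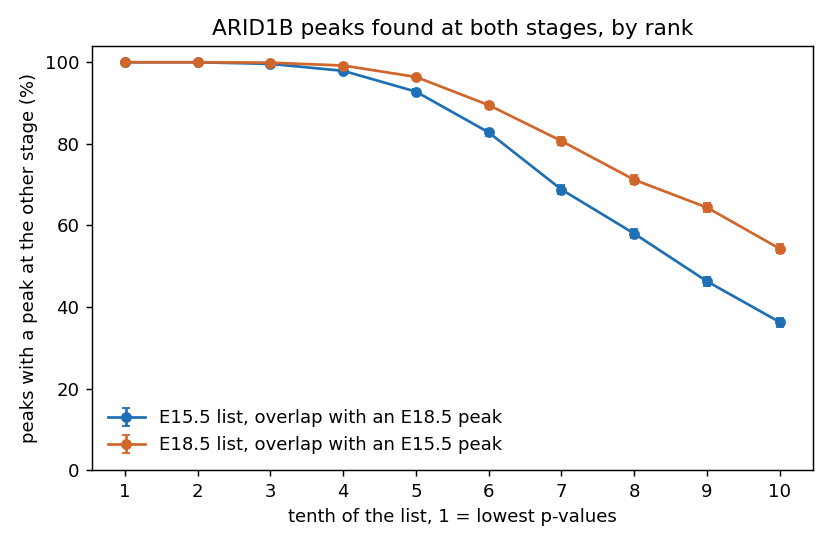
Share of ARID1B peaks (y axis, percent) that overlap a peak of the other stage, by decile of the list ordered by p-value (x axis), for the E15.5 list (circles, blue) and the E18.5 list (circles, orange). Bars are 95% Wilson intervals, and the shares go from 100% in the first decile to 36.3% and 54.3% in the last.

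The lists differed in depth and in their lowest peaks. The depth is not stated with the lists and was recovered from the link between fold enrichment and p-value. The background was 8.63 reads per point at E15.5 and 6.13 at E18.5. With the mouse genome size of MACS2, this corresponds to a calling depth of about 80.7 M reads at E15.5, where each ChIP read counted as 0.856 (94.3 M ChIP reads scaled down), and of 57.3 M unscaled ChIP reads at E18.5. Of the E15.5-only peaks, 55.4% had a fold enrichment below 3.09, the 5th percentile of the E18.5 list, whereas 0.562% of the E18.5-only peaks lay below the 5th percentile of the E15.5 list, 2.77. The larger number of E15.5-only peaks and the greater calling depth at E15.5 cannot be told apart. With the 30000 strongest peaks of each list, 4625 peaks were E15.5 only and 4295 were E18.5 only. With −log10 p of at least 15 required of the classed peak but not of its partner, 140 of 27281 E15.5 peaks and 28 of 24888 E18.5 peaks were stage-only.

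Near the limit of the rule, small shifts of a border decide the class. Of the 59902 overlapping pairs of peaks, 201 shared 10 bp or less, and 87 E15.5-only and 97 E18.5-only peaks lay within 10 bp of a peak of the other stage. Of the E15.5-only peaks, 24.7% lay within 500 bp of an E18.5 peak and 68.9% within 10000 bp. Of the E18.5-only peaks, 30.9% and 72.5% did. The split of 1 broad peak into several also occurred. At E15.5, 4199 peaks overlapped 2 or more E18.5 peaks, and at E18.5, 1855 peaks overlapped 2 or more E15.5 peaks.

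Peaks found at both stages kept their order to a large extent. There were 53484 pairs in which each peak was the strongest partner of the other. Spearman's rho of their ranks was 0.85 (0.87 over 15886 pairs at promoters and 0.83 over 37598 pairs away from them). It describes peaks of 2 lists and has no replicate behind it. The summits of a pair lay a median of 58.0 bp apart, and 87.1% lay within 200 bp. Of the pairs with the E15.5 peak in the top 10% of its list, 97.2% had the E18.5 peak in the top 20%. In the other direction, it was 98.0%. Among all pairs, 4205 lost and 2623 gained more than 25 percentile points from E15.5 to E18.5. Among the 8243 pairs with a peak in the top 10% of either list, 55 moved by more than 20 points.

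**Figure D2:**
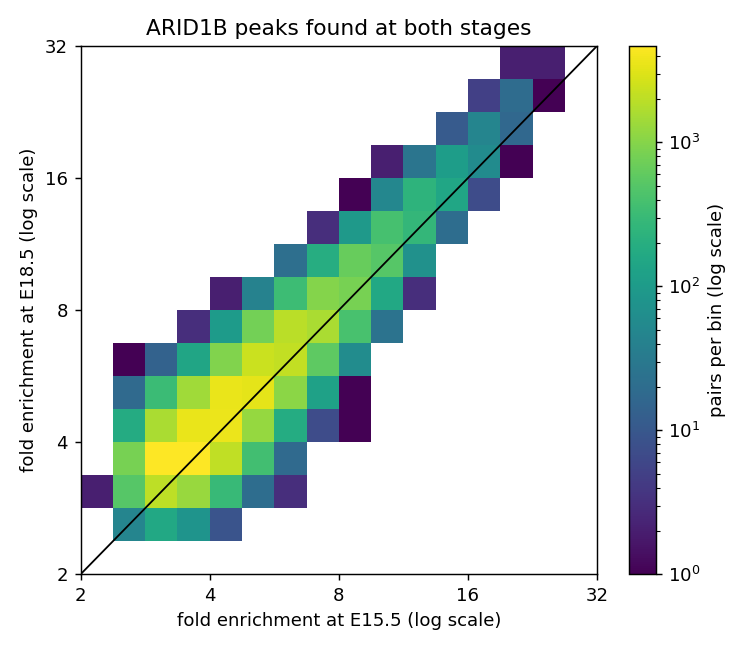
Fold enrichment at E15.5 (x axis) and at E18.5 (y axis), both on log scales, for the 53484 pairs of ARID1B peaks found at both stages, with color for the number of pairs per bin on a log scale and a line of equal values. The pairs follow the line, with a median log2 ratio of E18.5 over E15.5 of 0.11, which carries differences in depth and enrichment between the lists.

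The strongest peaks were the same places at both stages. The top peak of each list had its summit at the same base, 79004810 of chromosome 9, between genes and 389 kb from the TSS of Cd109, which codes for a cell surface glycoprotein. Rank 2 of each list lay in an intron of Btbd9 (chr17:30496532-30499459 at E15.5), a BTB domain gene linked to restless legs syndrome, with fold enrichments of 23.2 and 29.0. A peak 79.1 kb from Olig3, a bHLH factor of the dorsal neural tube, had rank 4 at E15.5 (22.5) and rank 3 at E18.5 (27.5). A peak 91.3 kb from Naa11 had rank 5 (22.4) and rank 4 (26.9). A peak in an intron of Ebf1, a factor of striatal and olfactory neurons, had rank 3 at E15.5 (23.0) and rank 8 at E18.5 (25.8). All 5 also overlapped a FOXP1 and a TCF7L2 peak at the same stage, and none was at a promoter.

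The largest changes in rank among strong peaks were as follows. The peak at the shared promoter of Nosip and Prrg2 (chr7:45062109-45062816 at E15.5) went from a fold enrichment of 3.84 at E15.5 to one of 7.85 at E18.5, where it stood at percentile 8.59. The promoter peak of Slc7a2, a transporter of cationic amino acids, went from 4.28 to 8.13 and from percentile 39.5 to 7.58. Peaks in an intron of Mtss1, a membrane-bending actin regulator (4.28 and 7.71), 39.0 kb from Dpy19l1 (4.73 and 8.84), and 234 kb from Hsfy2 (4.19 and 7.85) also had the higher rank at E18.5. In the other direction, a peak 19.7 kb from Arpin (chr7:79954923-79955260) went from 8.19 at E15.5 to 4.63 at E18.5 and from percentile 5.36 to 40.7. The 200 bp around its summit are annotated as repeats over 100% of their length. A peak 5.56 kb from Itln1 went from 7.13 to 4.63, and a peak 1100 kb from Tenm2, a teneurin of synaptic adhesion, went from 6.95 to 4.63. The other 2 of the 5 largest losses were on chromosome 18, 477 kb from Tshz1, a zinc finger gene (6.95 and 4.35), and 452 kb from Dsc3, a desmosomal cadherin (8.28 and 4.77).

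Stage-only peaks lay at promoters less often than peaks found at both stages. A promoter is here the 2000 bp upstream of any annotated TSS. At E15.5, 15.9% (15.3% to 16.5%) of E15.5-only peaks and 29.8% (29.5% to 30.2%) of peaks found at both stages overlapped a promoter. At E18.5, it was 15.1% (14.4% to 15.8%) and 29.7%. Stage-only peaks are narrower, and a wider peak overlaps a promoter more easily. By summit, the promoter shares were 14.0% and 13.3% in the stage-only classes, against 23.7% and 24.1%. By summit, 46.3% of E15.5-only and 47.9% of E18.5-only peaks lay in introns, against 38.5% and 38.6% of peaks found at both stages. A further 32.9% and 31.9% were intergenic, against 29.6% and 29.1%. The stage-only classes thus resembled each other more than either resembled the peaks found at both stages. Rank moves with this result. Promoter peaks made up 28.8% of decile 1, 45.2% of decile 2, and 17.5% of the last decile of the E15.5 list. In the E18.5 list, these shares were 30.4%, 43.6%, and 18.6%. When both lists were limited to −log10 p of at least 15, 30.2% of E15.5-only and 28.4% of E18.5-only peaks were at promoters. All but 140 of these 5448 E15.5-only peaks and all but 28 of these 2866 E18.5-only peaks overlapped a peak of the other stage that the limit had removed.

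**Figure D3:**
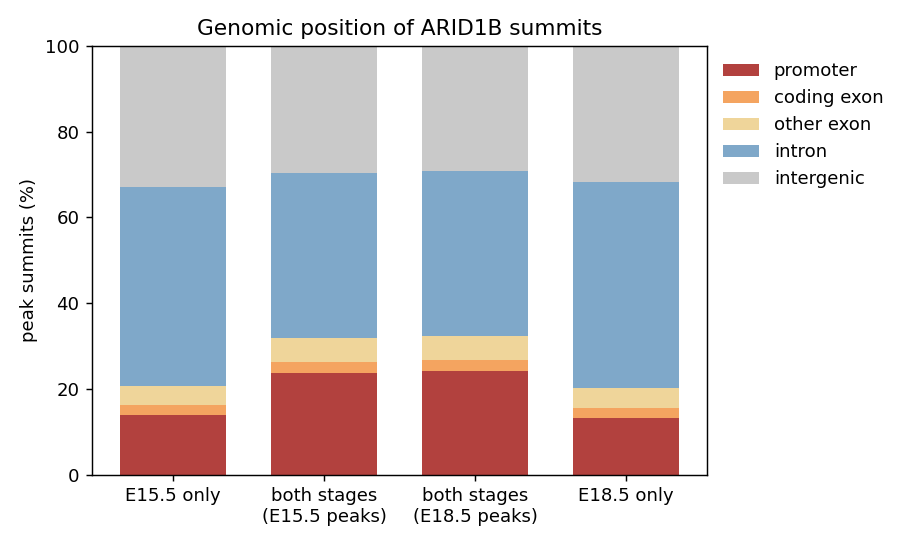
Position of ARID1B summits (y axis, percent of summits, stacked to 100) for E15.5-only peaks, peaks found at both stages (from each list), and E18.5-only peaks. The promoter part is 14.0% and 13.3% in the stage-only classes and 23.7% and 24.1% in the peaks found at both stages.

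Base composition of the 200 bp around summits differed between classes at promoters. The median GC content there was 53.5% in E15.5-only and 51.5% in E18.5-only peaks, against 63.5% and 63.0% in peaks found at both stages. In the weaker 50% of each list, the latter had 57.5% and 57.0%. Stage-only peaks gather toward the last deciles, so values of the weaker 50% are not matched in rank, here or for the motifs. Away from promoters, the median GC content was 47.5% and 47.0% in stage-only peaks and 47.0% in peaks found at both stages of either list. Over all peaks, the windows of stage-only peaks held a mean of 3.93 and 3.75 CpGs, against 6.83 and 6.80. Away from promoters, the CATCTG E-box was present in 27.7% (26.9% to 28.5%) of E15.5-only windows and 26.8% (25.8% to 27.7%) of E18.5-only windows. It was present in 36.7% and 35.4% of windows of peaks found at both stages. In the weaker 50% of each list, the peaks found at both stages had 28.3% and 28.0%. Among 47925 windows of the same length set every 50 kb along the genome, 15.1% held it.

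Other motifs were read in the same windows. Away from promoters, CAGCTG was present in 18.3% to 19.7% (95% interval) of E15.5-only and 17.3% (16.5% to 18.1%) of E18.5-only windows, against 21.6% and 20.9% of windows of peaks found at both stages and 7.46% of genome windows. The NFI half-site CTTGGCA was present in 7.43% and 7.25%, against 9.77% and 9.70% in peaks found at both stages (genome 3.07%). NFI factors take part in the switch to gliogenesis, and the intervals of the stage-only classes for their half-site overlapped (6.99% to 7.89% and 6.71% to 7.82%). The homeobox core TAATTA was present in 9.06% (8.58% to 9.57%) and 9.77% (9.15% to 10.4%), against 11.4% and 10.9% in peaks found at both stages and 7.33% of genome windows. In the weaker 50% of each list, the peaks found at both stages had 19.5% and 18.6% for CAGCTG, 7.96% and 8.50% for the NFI half-site, and 10.3% and 9.75% for TAATTA. Not all motifs were above the genome windows, whose median GC content was lower (42.0%). The AP-1 motif TGANTCA was present in 5.82% and 5.83% of stage-only windows (genome 6.03%), and the SOX motif CATTGTT in 3.03% and 2.91% (genome 3.92%). At promoters, GGGCGGGG, the box of SP and KLF factors, was present in 5.59% of E15.5-only and 4.69% of E18.5-only windows, and in 16.5% and 16.0% of windows of peaks found at both stages (genome 0.543%). In the weaker 50% of each list, the latter had 9.87% and 9.82%. The ETS motif CCGGAAGT was present in 0.327% and 0.0679% of stage-only promoter windows (8 of 2449 and 1 of 1472, intervals 0.166% to 0.643% and 0.0120% to 0.384%), and in 3.50% and 3.24% of the others. In the weaker 50% of each list, the others had 0.745% and 0.945%. In the genome windows it was present in 0.125%.

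Most genes with an ARID1B promoter peak had one at both stages. Of 20807 protein-coding genes, 12127 (58.3%) had a promoter peak at both stages, 540 (2.60%) at E15.5 only, 242 (1.16%) at E18.5 only, and 7898 at neither. The counts of genes at 1 stage depend on the cut. They were 1250 and 601 with both lists limited to −log10 p of at least 15, 31 and 12 with this limit on the classed list alone, and 809 and 690 with the 30000 strongest peaks of each list. The best promoter peak of the E15.5-only genes had a median fold enrichment of 3.21 and a median percentile of 72.9, against 5.35 and 22.5 for genes with peaks at both stages. For the E18.5-only genes, it was 3.37 and 81.5, against 5.75 and 23.5. In 122 of the 540 genes and 44 of the 242, the best promoter peak itself overlapped a peak of the other stage that ended short of the promoter. For example, the peak of Lpar5, a receptor for lysophosphatidic acid, reached 11.1 at E15.5 and overlapped an E18.5 peak that did not reach the promoter. The Ddx28 peak (9.79) and, at E18.5, the Ccm2l peak (9.82) were of the same kind.

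Genes whose promoter peak was absent from the other list altogether had low peaks. The highest at E15.5, picked out after the values were seen, were Mfsd8, a lysosomal membrane protein (5.44, chr3:40846613-40846896), Zfp747 (4.90), Sestd1 (4.73), and Mreg (4.64). Abhd18 shares the Mfsd8 peak. The highest at E18.5 among genes with a given name were Krtcap3 (4.35), Capn12 (4.21), and Lynx1, which codes for a modulator of nicotinic receptors (4.07). Emilin2 and Pla2g12a were tied with Lynx1. The best rank among them was that of Mfsd8, at percentile 21.4, and Krtcap3 was at percentile 46.9.

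The highest stage-only peaks at promoters lay at varied distances from the other list. At E18.5, the peak at Nrp2, a semaphorin receptor gene (5.47, chr1:62700968-62701409), lay 1249 bp from an E15.5 peak. The E18.5-only peaks at Pknox1 (5.05), Baz2a (4.77), and Eps8 (4.77) lay 123, 146, and 8 bp from an E15.5 peak. An E18.5-only peak at the non-coding gene Gm44207 (4.77) lay 6106 bp from one. Over all E18.5-only peaks, 39.4% lay within 1000 bp of an E15.5 peak. At E15.5, the Mfsd8 peak lay 46275 bp from the nearest E18.5 peak, and peaks at the non-coding genes Gm22597 (5.26), Gm25064 (5.17), and 1810014B01Rik (4.99) lay 10465, 2617, and 19428 bp away. Over all E15.5-only peaks, 33.6% lay within 1000 bp.

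Away from promoters, the highest E15.5-only peak (5.70) lay in an exon of Gm42418 and CT010467.1 (chr17:39847008-39847258), transcripts of a ribosomal RNA repeat, 159 bp from an E18.5 peak. The next were 237 kb from Brms1l (5.44) and in introns of Smad9, a BMP effector, and Pax7, a dorsal midbrain and neural crest factor (5.17 each). The highest E18.5-only peaks lay in introns of Adgrv1 (5.89), Ak5 (5.61), Mrps27 (5.61), and Rapgef2, a Rap activator in migrating neurons (5.33), and in an exon of Adam11 (5.33). Of the 10 highest stage-only peaks away from promoters, 5 per stage, 3 overlapped a peak of FOXP1 or TCF7L2 at the same stage. Over all stage-only peaks away from promoters, 35.4% did at E15.5 and 21.7% did at E18.5.

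Lists of 209 genes in 17 groups were read for a promoter peak, and 168 had one at both stages, beside 58.3% of all protein-coding genes. The shares of the lists lay on both sides of this value. All 16 radial glia genes (Sox2, Pax6, Hes1, and others), all 12 proliferation genes, all 12 upper layer genes, and all 9 immediate early genes had a promoter peak at both stages. So did 12 of 13 intermediate progenitor and proneural genes, 11 of 12 deep layer genes, 19 of 20 synapse and maturation genes, and 10 of 12 astrocyte genes. The labelled tissue was checked the same way, and 7 of 8 forebrain identity genes but 3 of 10 hindbrain and trunk genes had a promoter peak at both stages. A promoter peak is not a measure of expression, and synapse genes had theirs before most cortical synapses form.

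For other cell types of the cortex and its surroundings, the counts of genes with a promoter peak at both stages were 6 of 11 for the oligodendrocyte lineage, 12 of 15 for interneurons, 6 of 9 for striatum, 2 of 9 for endothelium and pericytes, 2 of 8 for microglia, and 2 of 5 for meninges. The shares of the oligodendrocyte lineage (54.5%) and striatum (66.7%) were close to the 58.3% of all genes, and those of endothelium and pericytes (22.2%) and meninges (40.0%) were lower. Olig1, Sox10, Cspg4, Mag, and Mog had no promoter peak at either stage. The microglial gene Tmem119 had a peak at both stages, whereas Aif1, Cx3cr1, Csf1r, and P2ry12 had none.

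Promoter peaks at 1 stage only were found in 10 listed genes, all of them low. At E15.5 only, these were the patterning genes Gbx2 (2.95), Hoxa5 (2.95), and Hoxd9 (3.57), the deep layer gene Crym (2.68), the dopamine receptor gene Drd2 (2.95), and the vascular genes Pdgfrb (2.68) and Kdr (3.04). At E18.5 only, they were the midbrain gene En1 (3.51), the proneural gene Neurod4 (3.37), and Ebf1 (3.37). None was in the stronger 50% of its list, and the best rank was that of Hoxd9, at percentile 58.2. The counts of 7 and 3 in 209 genes stand beside the 2.60% and 1.16% of all protein-coding genes.

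Over all genes with a promoter peak at both stages, the median percentile of the best one went from 22.5 to 23.5 (lower is stronger), and 46.4% ranked higher at E18.5. Deep layer genes had medians of 31.3 and 20.5, with 7 of 11 ranked higher at E18.5. Among them, the rank of Nr4a2, a subplate and claustrum gene, went with fold enrichments of 4.64 (E15.5) and 7.43 (E18.5), and Fezf2, the selector of subcerebral neurons, had 4.64 and 6.17. The 4 deep layer genes that ranked lower at E18.5 were Zfpm2 (percentiles 22.5 and 40.7), Ldb2 (29.9 and 43.7), Nfe2l3 (58.2 and 69.1), and Tbr1 (18.6 and 20.5). Of those that ranked higher, Tle4 (4.05 and 2.84) and Foxp2 (0.559 and 0.216) changed little. Immediate early genes had medians of 32.8 and 25.2, with 6 of 9 ranked higher at E18.5. Interneuron genes had medians of 51.4 and 61.1, with 2 of 12 ranked higher at E18.5. BAF subunit genes had 14.7 and 20.5, with 10 of 29 ranked higher at E18.5. Striatum genes had 27.9 and 38.5, with 2 of 6 ranked higher at E18.5, and forebrain identity genes had 12.7 and 19.1, with 4 of 7. Radial glia genes had 33.6 and 33.2, and synapse genes 18.6 and 16.7. All these medians were taken separately at each stage, so a difference between medians is not the shift of a typical gene.

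**Figure D4:**
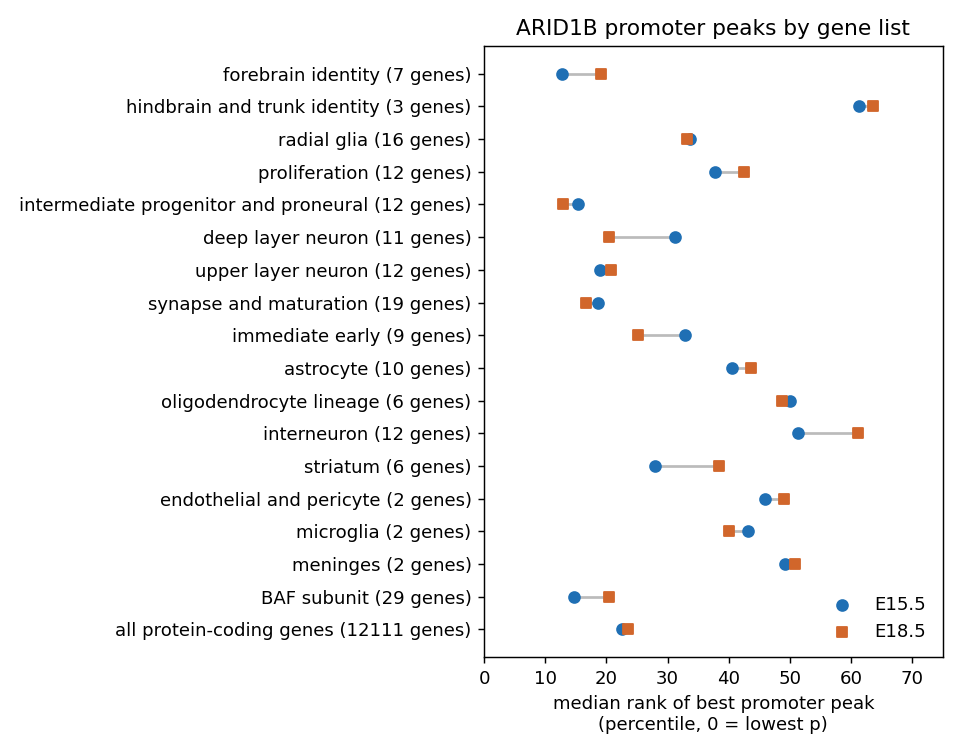
Median rank percentile (x axis, 0 = lowest p-value) of the best ARID1B promoter peak at E15.5 (blue circles) and E18.5 (orange squares) for 17 gene lists and all protein-coding genes, each restricted to genes with a promoter peak at both stages (number in parentheses; the 12127 genes carry 12111 different symbols). Medians are 31.3 and 20.5 for deep layer genes, 27.9 and 38.5 for striatum genes, and 51.4 and 61.1 for interneuron genes. All genes have 22.5 and 23.5. Each median was taken separately at its stage, so a difference between medians is not the shift of a typical gene.

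Shifts of more than 25 percentile points were rare in the lists, as they were over all genes. Of the 168 listed genes with a promoter peak at both stages, 8 (4.76%) lost and 3 (1.79%) gained more than 25 points at E18.5. Over all 12127 genes, 3.89% lost and 2.10% gained as much. These genes were picked out after their values were seen. The largest loss was that of Pou3f1, a POU factor of upper layer and callosal neurons, with fold enrichments of 4.99 (E15.5) and 3.09 (E18.5). The interneuron genes Dlx5 (4.90 and 3.37), Dlx6 (3.39 and 2.95), and Dlx1 (5.53 and 4.35) were also among them, with the cyclin gene Ccnb1 (4.55 and 3.65), Isl1 (4.99 and 3.93), Dpf2 (5.35 and 4.21), and Aldoc (4.37 and 3.79). The 3 gains were in Drd1 (2.77 and 4.49), the NMDA receptor subunit gene Grin2a (2.68 and 3.93), and the astrocytic water channel gene Aqp4 (3.21 and 4.49). Of the interneuron genes, Dlx2 (percentiles 47.7 and 35.6) and Gad2 (45.5 and 33.2) ranked higher at E18.5, and of the astrocyte genes, Aldoc is among the losses and Aqp4 among the gains.

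Away from promoters, each peak was assigned to the protein-coding gene with the nearest TSS, and 25.0% of such peaks were stage-only at E15.5 and 16.9% at E18.5. Arid1b itself was among the genes with the greatest excess of E15.5-only peaks. Of its 54 distal peaks at E15.5, 20 (37.0%) were E15.5 only, and of its 38 at E18.5, 3 (7.89%) were E18.5 only. The 20 peaks were low, with fold enrichments of 2.50 to 3.39, and 13 of them lay within the gene (chr17:4994332-5347656). The 34 distal peaks of E15.5 found at both stages reached 13.6. The promoter of Arid1b had 3 peaks at each stage, and the best had a fold enrichment of 5.70 and 5.61.

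Other genes with a great excess of E15.5-only distal peaks were as follows. Celf2, an RNA-binding splicing regulator, had 38 of 108 at E15.5 and 17 of 96 at E18.5. The cadherin genes Cdh8 (21 of 67 and 7 of 54) and Cdh4 (23 of 57 and 10 of 43) and the teneurin gene Tenm4 (24 of 122 and 10 of 106) followed. Zfp608 had 33 of 136 and 14 of 123, and Dnah8, an axonemal dynein gene, had 22 of 54 and 7 of 44. The excess of Cdh4, 13 peaks, was also that of Kirrel3 (20 of 66 and 7 of 56), Slc39a11 (16 of 45 and 3 of 32), and Tenm3 (30 of 100 and 17 of 89). In the share of peaks, Tenm4 (19.7%) and Zfp608 (24.3%) were below the 25.0% of all distal peaks at E15.5, and Dnah8 (40.7%) and Cdh4 (40.4%) were the highest of the genes named here.

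The genes with an excess of E18.5-only distal peaks had smaller counts. Sall3, a zinc finger gene, had 1 of 17 at E15.5 and 11 of 29 at E18.5, the Groucho corepressor gene Tle3 had 9 of 39 and 16 of 52, and Runx1t1, a corepressor gene, had 7 of 56 and 16 of 67. Tmem132b had 4 of 30 and 12 of 40, Btbd9 had 7 of 47 and 15 of 59, and Hdac4, a class IIa histone deacetylase gene, had 1 of 12 and 8 of 18. Tied with an excess of 6 peaks were Csmd1 (4 of 31 and 10 of 39), Csrnp3 (1 of 14 and 7 of 21), Prrc2b (0 of 8 and 6 of 13), and Tshz1 (2 of 17 and 8 of 23). Genes were ranked on these counts, which therefore describe them and carry no test.

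E15.5-only distal peaks were found in all 17 gene lists, and E18.5-only distal peaks in all but the microglia list, which had 0 of 5. For E15.5 peaks, the share ranged from 15.2% (5 of 33, meninges) to 37.5% (3 of 8, microglia), beside 25.0% over all genes. Radial glia (22.5%), upper layer (23.0%), deep layer (22.9%), and astrocyte genes (26.2%) were close to it. Over all genes, 12935 of 51752 distal peaks were E15.5 only and 8308 of 49110 were E18.5 only, so an excess at E15.5 is general. Individual genes with such an excess included Nfib (21 of 86 and 10 of 79) and Sox5 (24 of 73 and 14 of 66). Others were Bcl11b (11 of 37 and 2 of 30), Bcl11a (19 of 60 and 10 of 52), and Lhx2 (10 of 16 and 4 of 13). The share of Nfib at E15.5, 24.4%, was below the 25.0% of all distal peaks. Astrocyte genes together had 54 E15.5-only peaks of 206 and 35 E18.5-only peaks of 200, and radial glia genes had 54 of 240 and 47 of 252. Within these lists, the radial glia genes Slc1a3 (0 and 4), Sox2 (4 and 6), Vim (0 and 1), and Fabp7 (0 and 1) went the other way. So did the astrocyte gene Gja1 (0 and 3), whereas Nfia (14 and 10) and Sox9 (13 and 8) did not. For E18.5 peaks, the share was 18.7% for radial glia, 13.5% for deep layer, and 17.5% for astrocyte genes, beside 16.9% over all genes.

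Among BAF subunit genes, 29 of 30 (96.7%, beside 58.3% of all protein-coding genes) had a promoter peak at both stages, and Phf10, which codes for a progenitor subunit, had none at either. The ATPase genes Smarca4 (6.50 and 7.71) and Smarca2 (7.04 and 7.15) and the paralog Arid1a (11.2 and 13.5) had strong promoter peaks at both stages. Other genes for progenitor subunits and their neuronal counterparts had promoter peaks at both stages. Actl6a had 5.70 and 5.05 and its neuronal counterpart Actl6b 5.70 and 6.03, and Ss18 had 6.86 and 7.15 and its counterpart Ss18l1 7.21 and 7.29. Dpf2 had 5.35 and 4.21, and the neuronal Dpf1 had 5.53 and 6.45. Of the distal peaks of these genes, 65 of 232 (28.0%) were E15.5 only and 27 of 199 (13.6%) were E18.5 only, beside 25.0% and 16.9% over all genes. Without Arid1b, it was 25.3% and 14.9%.

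Peaks of the other TRs were less frequent on stage-only ARID1B peaks. Of the E15.5-only peaks, 40.6% (39.8% to 41.4%) overlapped a FOXP1 or TCF7L2 peak at E15.5, against 78.7% of the E15.5 peaks found at both stages. Of the E18.5-only peaks, 26.5% (25.6% to 27.4%) overlapped one at E18.5, against 64.0%. These shares depend on the cut, and with both lists limited to −log10 p of at least 15 they were 79.6% and 58.3% of stage-only peaks, and with the 30000 strongest peaks 74.2% and 55.2%. With both lists limited, all but 140 of 5448 E15.5-only and all but 28 of 2866 E18.5-only peaks overlapped a removed peak of the other stage. The share for peaks found at both stages under these cuts is not given here, so 79.6% is not comparable with 78.7%. Rank moves with the overlap too. Away from promoters and in the weaker 50% of the list, FOXP1 at E15.5 was present on 33.6% (32.8% to 34.4%) of E15.5-only peaks and 54.1% (53.3% to 54.8%) of peaks found at both stages. Ranks still differ within this 50%. Decile 6 of the E15.5 list held 1218 E15.5-only peaks and 5853 found at both stages, and decile 10 held 4507 and 2564. Width differs as well, with medians of 271 and 249 bp in stage-only peaks against 569 and 494 bp. A wider peak meets a rule of 1 base more easily, and width was not matched.

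Both stage-only classes met the other lists in the same order. Away from promoters, FOXP1 peaks of E15.5 were present on 33.8% (33.0% to 34.6%) of E15.5-only and 28.5% (27.5% to 29.4%) of E18.5-only peaks. FOXP1 peaks of E18.5 were present on 6.12% (5.72% to 6.55%) and 4.12% (3.71% to 4.57%). TCF7L2 peaks of E15.5 were present on 9.46% and 7.67%, and those of E18.5 on 23.2% (22.5% to 24.0%) and 20.4% (19.5% to 21.2%). E18.5-only ARID1B peaks thus had the lower share with all 4 lists, those of E18.5 included. The FOXP1 list is longer at E15.5 and the TCF7L2 list longer at E18.5, and these shares move with that.

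**Figure D5:**
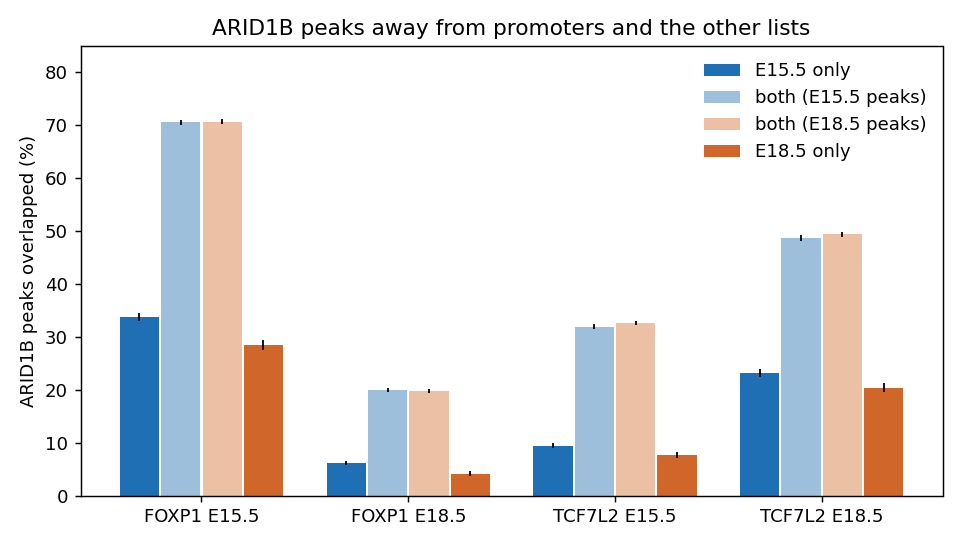
Share of ARID1B peaks away from promoters (y axis, percent) that overlap a FOXP1 or TCF7L2 peak of E15.5 or E18.5 (x axis), for E15.5-only peaks, peaks found at both stages (from each list), and E18.5-only peaks, with 95% Wilson intervals. Within each of the 4 groups, both stage-only bars are below the bars of peaks found at both stages, and the E18.5-only bar is the lowest. Peak widths and ranks differ between the classes.

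The shares of 78.2% and 85.6% for ARID1B stand beside 34.1% and 96.3% for FOXP1, and beside 30944 of 32579 E15.5 peaks and 56.3% of E18.5 peaks for TCF7L2, whose lists differ more in length. With the 20000 strongest peaks of each list, the shares were 83.3% and 84.0% for ARID1B, 77.0% and 82.7% for FOXP1, and 88.8% and 85.9% for TCF7L2.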

How the data were processed

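ARID1B ChIP-seq peaks were compared between E15.5 and E18.5. The authors sheared chromatin of CD1 cortices, sequenced single-end 50 bp reads, aligned them with BWA 0.7.15 to GRCm38 (mm10), and by their methods called peaks with MACS2 2.2.7 against input on merged replicates (q-value 0.01, constant background, extension of 200 bp). For duplicate reads, the handling was not given in the sources used here. Deposited peak lists hold a ratio (fold enrichment at the summit) and −log10 p, both computed by the authors, and these were used to describe and rank peaks. Authors' scores and q-values were not used.

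Peaks on chromosomes 1 to 19 were classed by overlap of at least 1 base and ranked within their list by p-value, then fold enrichment, and peaks tied in both share their mean percentile. Genes and TSSs came from GENCODE vM21 (the authors used another release) and promoters were 2000 bp upstream of any TSS. Peaks on other chromosomes (733 at E15.5 and 685 at E18.5) were left out. With 1 list per stage, no test between stages was possible, and shares carry 95% Wilson intervals for counting error only. Depth was recovered from fold enrichment and p-value under a Poisson background, with a genome size of 1.87e+09. The class and depth steps were tested on simulated data with known answers. Python 3.11.15, numpy 2.4.6, pandas 2.3.3, scipy 1.17.1, and pysam 0.24.0 were used.

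Members, gene lists, and motifs were chosen with earlier results of these data known. Named peaks were the 5 highest stage-only peaks per stage at and away from promoters, the 5 pairs with the best ranks, and the 5 largest gains and losses of rank among pairs with a peak in the top 10%. Named genes were the 8 per stage with the greatest excess of stage-only distal peaks and those tied with the last of them, listed genes with a promoter peak at 1 stage, and BAF subunit genes. Alternatives were another overlap, a distance of 500 bp, stricter lists, equal list sizes, and other promoters. A few items chosen by these rules are not reported here.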

Additional observations from a re-analysis of the deposited data

How the results depend on the processing

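No paired analysis was possible because there is 1 list per stage, and for the same reason no replicate could be left out. The direction that E15.5-only peaks outnumber E18.5-only peaks held under all 6 other overlaps and list cuts, but class sizes moved with the cut. Values are given as E15.5, then E18.5, first for the reported setting. The number of stage-only peaks (15384 and 9780) became 23936 and 21014 with a reciprocal overlap of 50%, 5448 and 2866 with −log10 p of at least 15 in both lists, 140 and 28 with this limit on the classed list alone, and 4625 and 4295 with the 30000 strongest peaks. With those settings in the same order, the share found at both stages (78.2% and 85.6%) was 66.1% and 69.0%, 80.0% and 88.5%, 99.5% and 99.9%, and, at E15.5, 84.6%. With a distance of 500 bp it was 83.6% and 90.0%, and with the 20000 strongest peaks, chosen after seeing the data, 83.3% and 84.0%.

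The promoter share of stage-only peaks (15.9% and 15.1%) was 21.1% and 23.1% with reciprocal overlap, 12.1% and 10.6% with 500 bp, 30.2% and 28.4% with both lists cut, 17.1% and 7.14% with the classed list cut, and 25.7% and 25.9% with the 30000 strongest. It was 13.0% and 12% with promoters of 500 bp on both sides of the TSS and 9.04% and 8.35% with TSSs of protein-coding transcripts. The share with a FOXP1 or TCF7L2 peak of the same stage (40.6% and 26.5%) was 53.3% and 47.7%, 36.0% and 19.8%, 79.6% and 58.3%, 45.0% and 17.9%, and 74.2% and 55.2% under the first 5 of these settings. Genes with a promoter peak at 1 stage (540 and 242) became 1250 and 601 with both lists cut, 31 and 12 with the classed list cut, and 809 and 690 with the 30000 strongest peaks. With both lists cut, all but 140 of the 5448 E15.5-only peaks and all but 28 of the 2866 E18.5-only peaks overlapped a peak of the other stage that the cut had removed. Peaks under the lowest fold enrichment of a list were not detectable at its depth.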
